A study of Mus musculus with 6 samples.

Results

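The genes described here are 10 genes of macrophage lipid handling, taken by name out of the 32287 features of the gene matrix: Apoe, Lpl, Abca1, Abcg1, Trem2, Gpnmb, Fabp5, Nr1h3, Pltp and Mylip. All 10 were present and all 10 passed the filter on low counts, so that 10 of the 10596 genes tested were members. They were followed across macrophage, monocyte and dendritic cell (DC) types and between unimmunized and immunized mice.

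A macrophage that eats dying cells takes in their membranes, and the cholesterol has to be stored or passed out again. Oxysterols made from that cholesterol activate the liver X receptors (LXRs), nuclear receptors that switch on the genes for export. Export runs through pumps in the cell membrane onto lipoprotein particles, which other proteins load, remodel and hydrolyse. In the lymph node, tingible body macrophages (TBMs) clear apoptotic B cells in the germinal center, and medullary sinus macrophages (MSMs) filter lymph.

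The cells came from Cd169Cre/+.Tdtomatofl/fl (CD169-Tom) mice, in which the Siglec1 (CD169) locus drives Cre, so that any cell that has turned the gene on, and its progeny, carries the red protein tdTomato (TOM). All 4 mice carried both alleles: 2 were unimmunized, and 2 had received hen egg lysozyme (HEL) and were taken at day 9. Lymph node cells with the sort label CD11b hi TOM + were stained with 1 hashtag antibody per mouse, pooled, and run in 2 droplet captures. The sort followed a lineage mark and not current CD169 expression, and the mice were older than 6 weeks.

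Of 18662 barcodes, 12139 were assigned to 1 mouse and kept: 2828 and 537 from the unimmunized mice, 4052 and 4722 from the immunized mice. Median depth was lower in the unimmunized mice (5877 and 6280 unique molecular identifiers, UMIs, per cell) than in the immunized mice (9674 and 12728). Before this, 1242 barcodes were dropped because their sequence was present in both captures. A cell was given a type by how many of that type's marker genes had a UMI, and no lipid handling gene was a marker. The TBM-like gate took precedence over the C1q macrophage-like, inflammatory macrophage-like, interferon-high monocyte-like, classical monocyte-like and moDC-like gates. The cDC1-like gate took precedence over the cDC2-like gate. How many TBM-like cells also met another gate was not counted. After these rules exactly 1 gate was left for 6036 cells, 4277 of them myeloid, while 1555 met several gates and 4548 met none. Each name rests on these markers alone and carries the ending -like. Vsig4, a marker of the C1q macrophage-like gate, had 0 UMIs in any cell. The TBM-like cells also carried the C1q genes, which stood among their leading genes beside C3ar1, Pf4, Ms4a7 and Itga9. MSM-like cells were shallow (median 1832 to 2853 UMIs per cell, by mouse), whereas immunized TBM-like cells had medians of 12674.5 and 15674.5. The sort also held B, T and NK cell-like cells, 1759 in all, which served as a comparison for the levels of the lipid handling genes.

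UMIs were summed per mouse and type, and levels are given as CPM, the gene's UMIs scaled to 1000000 UMIs of that sum. The values of 1 type are listed in the order unimmunized mouse 1, unimmunized mouse 2, immunized mouse 1, immunized mouse 2. In the immunized mice 10 myeloid types had at least 10 cells in both animals, and each was compared with the equal-weight mean log level of the other 9 (edgeR quasi-likelihood test, with Benjamini-Hochberg adjustment over all 10596 genes). That difference is given as a log2 value ± its standard error (SE) and is called at an adjusted p under 0.05. Because the reference is a mean of logs, it need not match a ratio of mean CPM. With summed libraries, fewer cells that express a gene and less RNA per cell cannot be told apart. The labels do not tie the mice to separate litters or days. The p-values of this fit rest on differences between the 2 animals of a group, pooled over types of the same mice.

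Between types, 25 of the 100 member-by-type pairs were called, 15 higher and 10 lower, where 9.82% of all gene-by-type pairs were called (6.37% higher and 3.46% lower). TBM-like cells held 6 of the higher calls (Apoe, Abca1, Trem2, Gpnmb, Nr1h3 and Pltp) and no lower one, in a type where 5.6% of all genes were called higher. Migratory DC-like cells had 3 higher calls (Fabp5, Abcg1 and Mylip) and 4 lower calls (Apoe, Abca1, Nr1h3 and Pltp), in the type with the highest background, 31.5%. The types of a mouse come from the same animal, and with the mouse as a block in the fit (the blocked fit) 48 pairs were called, 26 higher and 22 lower, against a background of 13.6% (8.59% higher and 5.02% lower). That fit kept all 25 calls and added 23, which are given gene by gene below.

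**Figure D1:**
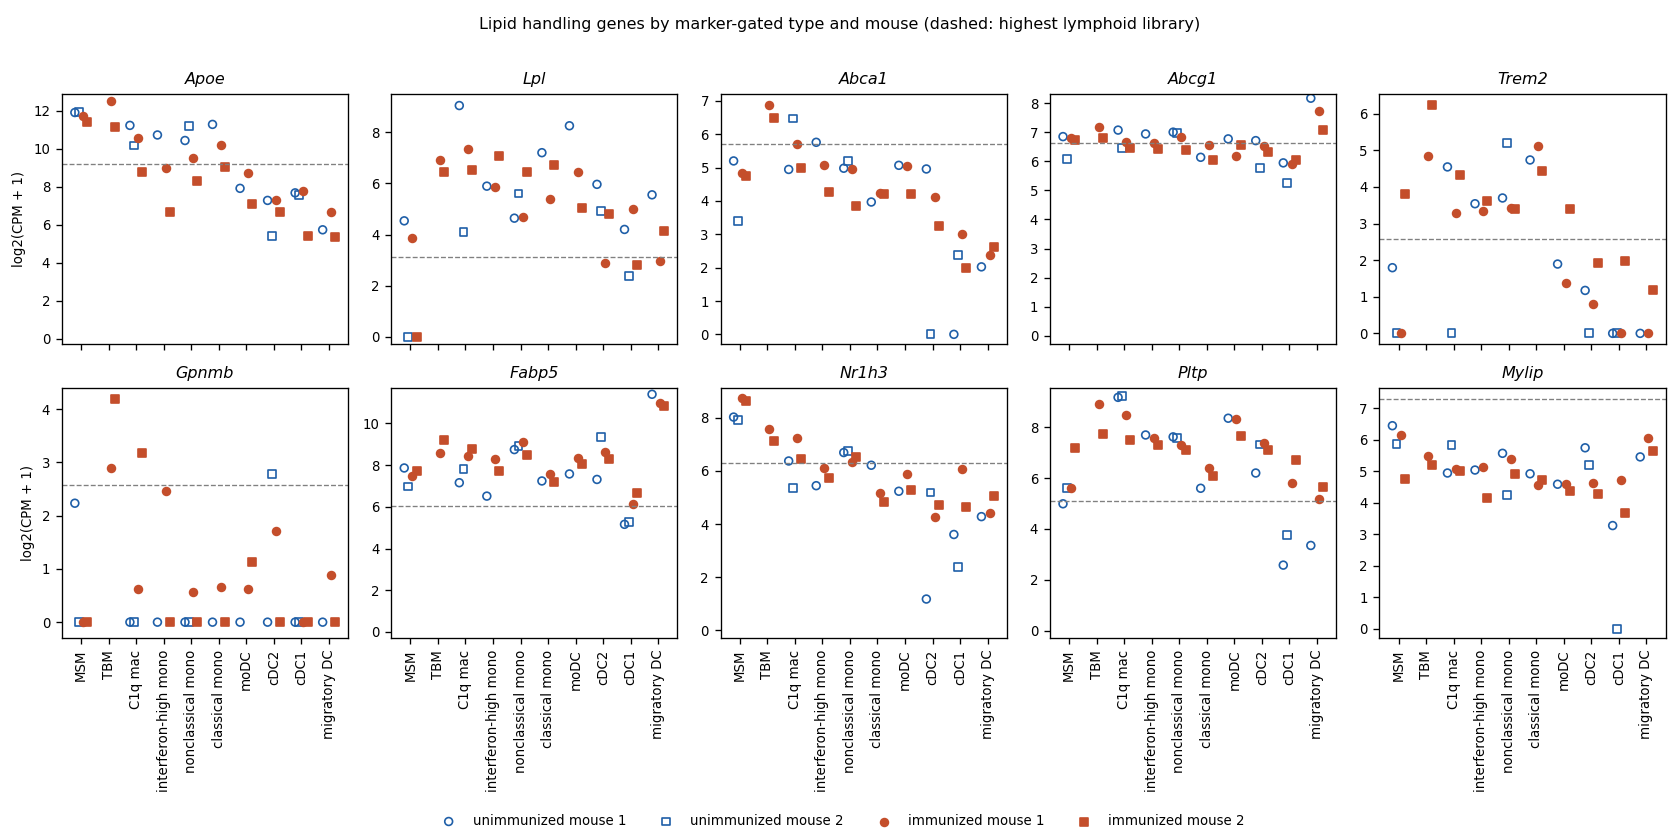
Level of each lipid handling gene, as log2(CPM + 1), by myeloid type and mouse; 1 point is the summed UMIs of 1 type in 1 mouse, and the dashed line is the highest B, T or NK cell-like library. Apoe in MSM-like and TBM-like cells and Fabp5 in migratory DC-like cells stand far above the line, while no Mylip point rises above it.

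Each gene was first set against the 12 lymphoid libraries. Fabp5 was above every lymphoid library in 35 of the 37 myeloid libraries, Pltp in 31, Lpl in 29, Trem2 in 18, Apoe and Abcg1 in 16 each, Nr1h3 in 14, Abca1 and Gpnmb in 5 each, and Mylip in 0. Free RNA in the droplets was not measured, and whether lymphoid cells express a member themselves was not tested. Mylip reached 155 CPM in a lymphoid library and at most 86.4 CPM in a myeloid one. The lymphoid level is therefore a comparison and not a floor.

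Apoe, on chromosome 7 (19696109 to 19699188, minus strand, build GRCm38), encodes apolipoprotein E, the lipoprotein component that accepts cholesterol from macrophages. MSM-like cells measured 3838, 3907, 3422 and 2694 CPM, and immunized TBM-like cells 5887 and 2303 CPM. The unimmunized mice had 9 and 6 TBM-like cells, under the minimum of 10, with 5647 and 2860 CPM. These were the 2 highest types, and their ranges overlapped in the immunized mice (mean 4095 ± 2534 CPM for TBM-like and 3058 ± 515 for MSM-like, SD, n = 2 mice). The difference from the other types was 3.38 ± 0.38 in TBM-like cells (adjusted p = 5.04e-07) and 2.88 ± 0.41 in MSM-like cells (adjusted p = 1.16e-05).

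C1q macrophage-like cells measured 2401, 1152, 1523 and 431.3 CPM of Apoe. Their mean in the immunized mice was 977 ± 772 CPM (SD, n = 2 mice), and their range overlapped that of classical monocyte-like cells. In the immunized mice, monocyte-like cells of the classical, nonclassical and interferon-high kinds ranged from 101.3 CPM (interferon-high) to 1178 CPM (classical), and these ranges overlapped. The cDC2-like, cDC1-like and migratory DC-like types were within or below the range of the lymphoid cells, which held 76.3 to 581 CPM: cDC2-like cells 41.4 to 157.5, cDC1-like cells 41.4 to 221.4 and migratory DC-like cells 39.6 to 102.3 CPM. All 3 were called lower, by −2.11 ± 0.62 (cDC2-like, adjusted p = 0.031), −1.90 ± 0.63 (cDC1-like, adjusted p = 0.044) and −2.90 ± 0.67 (migratory DC-like, adjusted p = 0.0012). The cDC2-like and cDC1-like calls were lost without either unimmunized mouse (adjusted p between 0.079 and 0.102), and with at least 95% of hashtag counts required the cDC1-like difference was −0.37. The blocked fit also called Apoe higher in C1q macrophage-like (1.07 ± 0.18, adjusted p = 1.29e-04) and classical monocyte-like cells (0.99 ± 0.19, adjusted p = 1.23e-04), and lower in interferon-high monocyte-like (−0.84 ± 0.23, adjusted p = 0.015) and moDC-like cells (−0.87 ± 0.22, adjusted p = 0.024).

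Immunized mouse 2 held less Apoe than immunized mouse 1 in 10 of 10 myeloid types, and in B, T and NK cell-like cells too. Over all kept cells the 4 mice measured 843, 782, 980 and 424 CPM. The lower level was thus seen across all cells of that animal, lymphoid cells included.

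Lpl, on chromosome 8 (68880491 to 68907448, plus strand), encodes lipoprotein lipase, which frees fatty acids from triglyceride-rich particles. C1q macrophage-like cells measured 529.4, 16, 164.1 and 91.9 CPM, and immunized TBM-like cells 118.8 and 86.9 CPM. Lymphoid cells held at most 7.80 CPM. The unimmunized C1q macrophage-like values rest on 15 and 11 cells and lay far apart, above and below both immunized values. MSM-like cells were at 22.2, 0, 13.7 and 0 CPM, at 6.84 ± 9.67 CPM (SD, n = 2) the lowest of the 10 types in the immunized mice, in contrast to their Apoe.

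The call in C1q macrophage-like cells was 1.84 ± 0.44 (adjusted p = 0.027). It was lost without unimmunized mouse 2 (adjusted p = 0.054), in the first capture alone, with at least 30 cells a library, in DESeq2 and with a robust estimate of the spread. The blocked fit also called Lpl higher in TBM-like (1.42 ± 0.36, adjusted p = 0.0051) and interferon-high monocyte-like cells (1.5 ± 0.38, adjusted p = 0.0070), and lower in cDC2-like (−1.97 ± 0.59, adjusted p = 0.020) and migratory DC-like cells (−1.95 ± 0.68, adjusted p = 0.021). In unimmunized mouse 1, moDC-like cells held 305.5 CPM of Lpl against 87.1 and 32.0 CPM in the immunized mice. The other unimmunized mouse had 9 moDC-like cells, under the minimum of 10, at 121 CPM. With a minimum of 5 cells the difference in Lpl was −2.05 and was not called (adjusted p = 0.184).

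Pltp, on chromosome 2 (164839518 to 164857711, minus strand), encodes phospholipid transfer protein, which moves phospholipid between lipoproteins. The gene overlaps Ctsa on the opposite strand, and no source used here says whether the counting used strand. Levels were 581.6, 599.8, 362.8 and 180.7 CPM in C1q macrophage-like cells, 483.7 and 211.1 CPM in immunized TBM-like cells, and 328.5, 322.8 and 201.7 CPM in moDC-like cells (unimmunized mouse 1 and the immunized mice). The ranges of these 3 types overlapped, and lymphoid cells held at most 33.4 CPM. The difference was 1.47 ± 0.24 in TBM-like (adjusted p = 1.34e-04), 1.15 ± 0.24 in C1q macrophage-like (adjusted p = 0.011) and 1.11 ± 0.24 in moDC-like cells (adjusted p = 0.043).

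The moDC-like call was lost under 11 of 19 alternatives, among them leaving out either unimmunized mouse (adjusted p = 0.148 and 0.143) or immunized mouse 1 (adjusted p = 0.157). The C1q macrophage-like call was lost without immunized mouse 1, where the difference was 0.57 (adjusted p = 0.296), with a robust estimate of the spread, with at least 30 cells a library and in DESeq2. Migratory DC-like cells measured 9.20, 35.5 and 49.9 CPM of Pltp and were called lower (−1.72 ± 0.35, adjusted p = 2.79e-04). MSM-like cells, at 30.8, 48.0, 47.9 and 143.9 CPM, were called lower only in the blocked fit (−1.26 ± 0.37, adjusted p = 0.013), as were classical monocyte-like (−0.85 ± 0.20, adjusted p = 0.0024) and cDC1-like cells (−0.89 ± 0.28, adjusted p = 0.023). MSM-like cells thus combined a high Apoe level with a Pltp level that, with the block, was called lower.

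Abca1, on chromosome 4 (53030787 to 53159895, minus strand), encodes the membrane pump that loads cholesterol and phospholipid onto lipid-poor apolipoproteins, and it is a standard target of the LXRs. The 250 bases before its RefSeq start site (GRCm38.p6, chr4:53159896-53160145, minus strand) are printed to show what an LXR response element looks for. The element is AGGTCA given 2 times on the same strand, with 4 bases of any letter between. Its nearest match here reads on the opposite strand at bases −67 to −52 from the start site, with 3 mismatches in the 12 fixed letters. The first capitals mark CACGTG, an E-box, at −147 to −142, and the second mark that match.
Abca1: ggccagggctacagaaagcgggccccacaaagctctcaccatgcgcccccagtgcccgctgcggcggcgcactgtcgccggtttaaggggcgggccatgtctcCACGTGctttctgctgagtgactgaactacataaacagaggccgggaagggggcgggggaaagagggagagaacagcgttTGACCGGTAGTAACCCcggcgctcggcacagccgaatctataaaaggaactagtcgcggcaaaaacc
A match with 3 or fewer mismatches, on either strand, occurred in 21.9% of 32851 promoters of 300 bases (250 before to 50 after the start), and CACGTG in 7.15%. Of the other members, 6 had a promoter in that table and their nearest matches had 4 or 5 mismatches, which 76.9% of promoters reach at 4. These are matches of letters, and binding of an LXR to any of them was not tested here.

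Immunized TBM-like cells measured 115.6 and 88.1 CPM of Abca1. No other myeloid type reached these values in both immunized mice: C1q macrophage-like cells followed with 51.0 and 30.9 CPM and MSM-like cells with 27.4 and 26.2 CPM. In the immunized mice the TBM-like range did not overlap that of C1q macrophage-like cells. The unimmunized C1q macrophage-like cells, 15 and 11 of them, measured 29.8 and 88.0 CPM, the latter next to the lower TBM-like value. Within the immunized mice the C1q macrophage-like range lay above that of MSM-like cells. It overlapped those of interferon-high monocyte-like cells (up to 32.8 CPM) and moDC-like cells (up to 32.1 CPM). B, T and NK cell-like cells ranged from 0 to 51.7 CPM, so that in the immunized mice the level was above every lymphoid library in TBM-like cells and, among 157 inflammatory macrophage-like cells of immunized mouse 2, at 64.4 CPM. The difference in TBM-like cells was 2.54 ± 0.26 (adjusted p = 1.26e-07). Migratory DC-like cells were at 3.07, 4.23 and 5.12 CPM and were called lower (−2.21 ± 0.59, adjusted p = 0.0043). That call was lost without immunized mouse 1 (−1.59, adjusted p = 0.137) and in the second capture alone. In the blocked fit, C1q macrophage-like cells were called higher (1.16 ± 0.20, adjusted p = 1.23e-04) and cDC1-like cells lower (−2.01 ± 0.56, adjusted p = 0.0086).

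Abcg1, on chromosome 17 (31057675 to 31117988, plus strand), encodes the pump that passes cholesterol to mature lipoprotein particles. Its order differed from that of Abca1. The highest levels were in migratory DC-like cells, 288.3, 213 and 134.3 CPM, followed by immunized TBM-like cells at 145.5 and 111.8 CPM, whose ranges overlapped. Migratory DC-like cells were called higher by 1.06 ± 0.18 (adjusted p = 2.92e-05).

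The other 8 of the 10 types compared spanned Abcg1 levels from 59.2 to 114.7 CPM in the immunized mice, and lymphoid cells reached 97.6 CPM. The blocked fit called TBM-like cells higher by 0.39 ± 0.13 (adjusted p = 0.048) and cDC1-like cells lower by −0.72 ± 0.20 (adjusted p = 0.0092). Migratory DC-like cells thus combined a high level of Abcg1 with a low level of Abca1, and in TBM-like cells both pumps were called higher in the blocked fit.

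Nr1h3, on chromosome 2 (91184061 to 91202834, minus strand), encodes LXR alpha, the oxysterol sensor itself. MSM-like cells measured 260.3, 240, 430.9 and 392.4 CPM, and every MSM-like library exceeded every other fitted library of the other 9 types in the immunized mice. Immunized TBM-like cells followed at 188.4 and 137.2 CPM and C1q macrophage-like cells at 152 and 85.6 CPM, with overlapping ranges. Lymphoid cells held at most 76.9 CPM. The difference was 2.87 ± 0.27 in MSM-like cells (adjusted p = 1.08e-08) and 1.38 ± 0.24 in TBM-like cells (adjusted p = 3.12e-04).

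Nr1h3 was called lower in cDC2-like (−1.91 ± 0.36, adjusted p = 7.83e-04), migratory DC-like (−1.41 ± 0.36, adjusted p = 0.0034) and classical monocyte-like cells (−1.19 ± 0.29, adjusted p = 0.0097), whose immunized values lay between 18.2 and 34.9 CPM and within the lymphoid range. The migratory DC-like call was lost without immunized mouse 1 (−0.80, adjusted p = 0.130), and the classical monocyte-like call under HTODemux hashtag assignment (adjusted p = 0.119). C1q macrophage-like cells were called higher in the blocked fit (0.91 ± 0.17, adjusted p = 3.79e-04). Nr1h3 overlaps the predicted genes Gm13783, on the same strand, and Gm23390.

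Mylip, on chromosome 13 (45389742 to 45412022, plus strand), encodes the ubiquitin ligase IDOL, an LXR target that limits lipoprotein uptake. NK cell-like cells measured 127.7, 129.1, 155.4 and 142.4 CPM, above all 37 myeloid libraries. Within the myeloid types, migratory DC-like cells held 42.9, 65.9 and 48.6 CPM and were called higher (1.10 ± 0.25, adjusted p = 9.46e-04). MSM-like cells measured 86.4, 57.6, 70.7 and 26.2 CPM, the last on 2 UMIs, and were called higher in the blocked fit (0.96 ± 0.32, adjusted p = 0.029), while cDC2-like cells were called lower (−0.65 ± 0.23, adjusted p = 0.049). All myeloid levels of Mylip lay below those of NK cell-like cells, and B and T cell-like cells held 23.2 to 76.5 CPM. Myeloid libraries ran from 0 to 86.4 CPM, so the order among myeloid types lies within or below lymphoid levels.

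Trem2, on chromosome 17 (48346401 to 48354147, plus strand), encodes a lipid-binding receptor of macrophages and microglia that signals through Tyrobp. Immunized TBM-like cells measured 27.8 and 73.9 CPM and classical monocyte-like cells 33.8 and 20.8 CPM. Lymphoid cells reached 4.95 CPM, and 11 of 37 myeloid libraries held no Trem2 UMI. The difference was 3.63 ± 0.38 in TBM-like cells (adjusted p = 1.85e-07) and 2.56 ± 0.41 in classical monocyte-like cells (adjusted p = 1.87e-04).

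The classical monocyte-like call was lost when 95% of hashtag counts were required (adjusted p = 0.435). MSM-like cells of the 4 mice held 3 Trem2 UMIs in all, at a much lower depth, and cDC1-like cells held 1. With the mouse as a block, C1q macrophage-like cells, at 8.78 and 19.1 CPM, were called higher (1.51 ± 0.38, adjusted p = 0.011) and migratory DC-like cells, with 1 UMI, lower (adjusted p = 0.030). The 157 inflammatory macrophage-like cells of immunized mouse 2 measured 56.5 CPM of Trem2. That gate held 8 cells in immunized mouse 1, with 0 Trem2 UMIs, and none in the unimmunized mice. With a minimum of 5 cells Trem2 was called higher in it (3.19, adjusted p = 1.89e-06).

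Gpnmb, on chromosome 6 (49036546 to 49070929, plus strand), encodes a lysosomal glycoprotein of lipid-laden macrophages. It was the sparsest member, with 204 UMIs in all gated cells and 0 in 23 of 37 myeloid libraries. TBM-like cells held 6 and 57 UMIs in the immunized mice (6.42 and 17.3 CPM), C1q macrophage-like cells 1 and 69 UMIs (0.549 and 7.99 CPM), and lymphoid cells at most 4.95 CPM. The call in TBM-like cells (adjusted p = 4.51e-04) rests on those UMIs against types near 0, so its fitted difference depends on the prior count. C1q macrophage-like cells were called higher in the blocked fit (adjusted p = 0.015), on 1 UMI in immunized mouse 1. The 8 inflammatory macrophage-like cells of that mouse, which were under the minimum of 10, held 6 Gpnmb UMIs among 72774 UMIs of all genes. In immunized mouse 2 the 157 cells of that gate measured 7.95 CPM, above the TBM-like cells of immunized mouse 1.

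Fabp5, on chromosome 3 (10012548 to 10016607, plus strand), encodes a cytosolic fatty acid carrier. Migratory DC-like cells measured 2701, 2005 and 1825 CPM, against 589.1 CPM in the next highest fitted library of an immunized mouse, from TBM-like cells. The difference was 2.97 ± 0.21 (adjusted p = 5.52e-12). In contrast, cDC1-like cells held 34.8, 37.5, 69.1 and 100.6 CPM, close to the lymphoid maximum of 64.3 CPM, and were called lower (−2.16 ± 0.36, adjusted p = 1.01e-04).

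Classical monocyte-like cells, at 189.2 and 145.5 CPM of Fabp5 in the immunized mice, were called lower by −1.05 ± 0.29 (adjusted p = 0.024), a call lost under 4 of 19 alternatives. With the mouse as a block, TBM-like cells were called higher (0.66 ± 0.19, adjusted p = 0.015) and MSM-like cells lower (−0.99 ± 0.31, adjusted p = 0.017). The DC-like types thus held both the highest and the lowest Fabp5 of the 10 types.

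**Figure D2:**
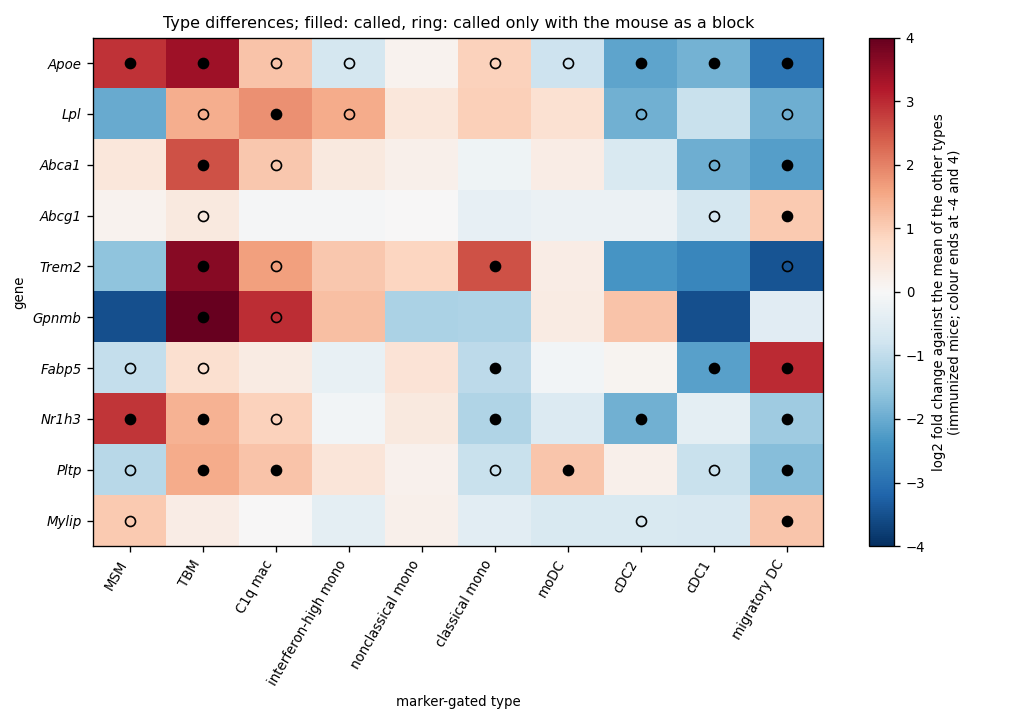
Difference of each gene in each of 10 types from the mean log level of the other 9 types in the immunized mice, in log2 units (red higher, blue lower); a filled dot marks an adjusted p under 0.05 and a ring a call made only with the mouse as a block. TBM-like cells carry 6 filled dots, all higher, and migratory DC-like cells 7, of which 4 are lower.

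Shares of cells with a UMI were compared after every cell was thinned to 1000 UMIs, which sets the MSM-like and TBM-like cells at 1 depth. In the immunized mice Apoe was found in 83.5% and 78.9% of MSM-like and in 79.2% and 56.3% of TBM-like cells. B cell-like cells (median 3148 to 6805 UMIs before thinning, by mouse) showed it in 28.0% and 26.3%, above the 4.72% and 4.48% of migratory DC-like cells. A share of Apoe at or under that of B cell-like cells was not set apart from the lymphoid level.

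Nr1h3 was found in 23.6%, 32.4%, 33.9% and 57.9% of MSM-like cells. Fabp5 was found in 72.1% (unimmunized mouse 1), 52.8% and 59.7% of migratory DC-like cells. Abca1 was found in 9.72% and 12.1% of TBM-like cells, and Pltp in 37.5% and 24.3%. Of 100 member-by-type pairs, 38 lay above every lymphoid library in both immunized mice. The same count was not made over all genes, so that 38 has no background beside it and is not particular to lipid handling genes. No test between 2 and 2 mice can go below an exact permutation p of 0.333 (two-sided), so shares were not used to call a change.

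**Figure D3:**
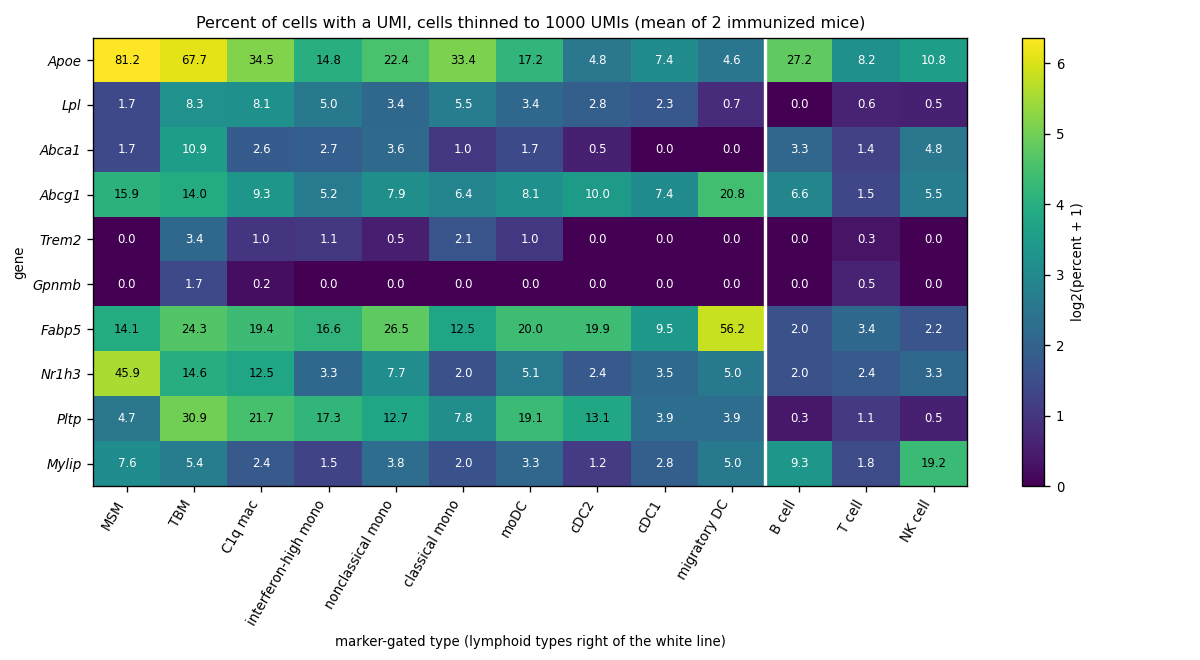
Percent of cells with at least 1 UMI of each gene after thinning each cell to 1000 UMIs, as the mean of the 2 immunized mice, for myeloid and lymphoid types. Apoe reaches 81.2% in MSM-like cells, and Mylip is most often seen in NK cell-like cells.

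Counted per cell at that depth, MSM-like cells had a mean of 1.51, 1.41, 1.61 and 1.84 of the 10 genes, and TBM-like cells 1.94 and 1.68 in the immunized mice. C1q macrophage-like cells had 1.87, 1.55, 1.34 and 0.894, monocyte-like cells between 0.516 and 1.33, cDC1-like cells between 0.260 and 0.389, and T cell-like cells between 0.133 and 0.372. At least 4 of the 10 genes were seen in 8.33% and 7.77% of immunized TBM-like cells. In immunized mouse 2, TBM-like cells made up 4.36% of the cells and held 28.9% of the Apoe, 22.4% of the Gpnmb, 20.5% of the Trem2 and 16.2% of the Abca1 UMIs of that mouse. The corresponding shares in immunized mouse 1, where they were 1.78% of the cells, were 14.4%, 6.19%, 7.85% and 9.82%.

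The comparison of immunized with unimmunized mice could be made in the 5 types with at least 10 cells in all 4 animals: MSM-like, C1q macrophage-like, nonclassical monocyte-like, cDC2-like and cDC1-like. Of 50 member-by-type pairs, 1 was called (edgeR), where 0.119% of all gene-by-type pairs were called. An unadjusted p under 0.05 was seen in 8 of the 50, and in 4513 of 52980 pairs over all genes. The call was Pltp in cDC1-like cells, where 0.406% of genes were called. It measured 4.96 and 12.5 CPM in the unimmunized and 55.0 and 103.5 CPM in the immunized mice, on 4, 3, 39 and 35 UMIs. Both immunized values exceeded both unimmunized ones, and lymphoid cells held up to 33.4 CPM. The difference was 3.47 ± 0.71 (adjusted p = 0.017).

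That call for Pltp did not survive several other ways of handling the data. It was lost without unimmunized mouse 1 (2.60, adjusted p = 0.618), without unimmunized mouse 2 (3.92, adjusted p = 0.164), under both other hashtag rules, in each capture alone, without the 5% of cells with the most UMIs, and with a robust estimate of the spread (adjusted p = 0.121). With 1 more marker required of each cell the difference fell to 1.00 (adjusted p = 0.980). The cDC1-like libraries held 50, 17, 43 and 18 cells.

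With the mouse as a block 3 pairs were called, against a background of 0.866%. This fit takes the difference between the 2 mice of a group out of the error, so its p-values do not cover that difference. Beside Pltp it called Nr1h3 higher in cDC1-like cells, at 11.2, 4.17, 66.3 and 23.7 CPM (2.40 ± 0.60, adjusted p = 0.029), and Apoe lower in nonclassical monocyte-like cells, at 1383, 2332, 732.5 and 315.6 CPM (−1.77 ± 0.28, adjusted p = 2.21e-04). Without the block these stood at 2.45 ± 0.68 (adjusted p = 0.170) and −1.64 ± 0.69 (adjusted p = 0.491). The lower Apoe of immunized mouse 2 was common to all types of that mouse, and immunized mouse 1 was below both unimmunized mice as well in this type.

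Other members gave values with no call. In MSM-like cells Nr1h3 was at 260.3 and 240 CPM in the unimmunized and 430.9 and 392.4 CPM in the immunized mice, without overlap (0.77 ± 0.39, adjusted p = 0.663). In C1q macrophage-like cells Fabp5 measured 141.7 and 223.9 CPM in the unimmunized and 343.6 and 437.9 CPM in the immunized mice (1.23 ± 0.44, adjusted p = 0.447), and Pltp 581.6 and 599.8 against 362.8 and 180.7 CPM (−1.0 ± 0.37, adjusted p = 0.493). The differences of Abcg1 lay between −0.21 and 0.25 in all 5 types, with SEs of 0.28 to 0.35, and none was called. Trem2 and Gpnmb had under 3 UMIs in a group in most of these types, and no difference is given for those.

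Whether the effect of immunization differed between types was tested against the mean effect in the other 4 types. None of 50 pairs was called (edgeR), where 0.0189% of all pairs were called. An unadjusted p under 0.05 was seen in 7 of the 50, and in 2705 of 52980 pairs over all genes. DESeq2 called 1 of the 50, and 30 of 52980 pairs over all genes. For Pltp the effect in cDC1-like cells was 3.33 above the mean of the others (adjusted p = 0.104). In the blocked fit 2 pairs were called, against 0.0812% of all pairs, both Pltp: cDC1-like cells (3.31 ± 0.67, adjusted p = 0.0081) and C1q macrophage-like cells (−2.20 ± 0.38, adjusted p = 0.0049). The C1q macrophage-like reference for that contrast contains the cDC1-like effect.

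**Figure D4:**
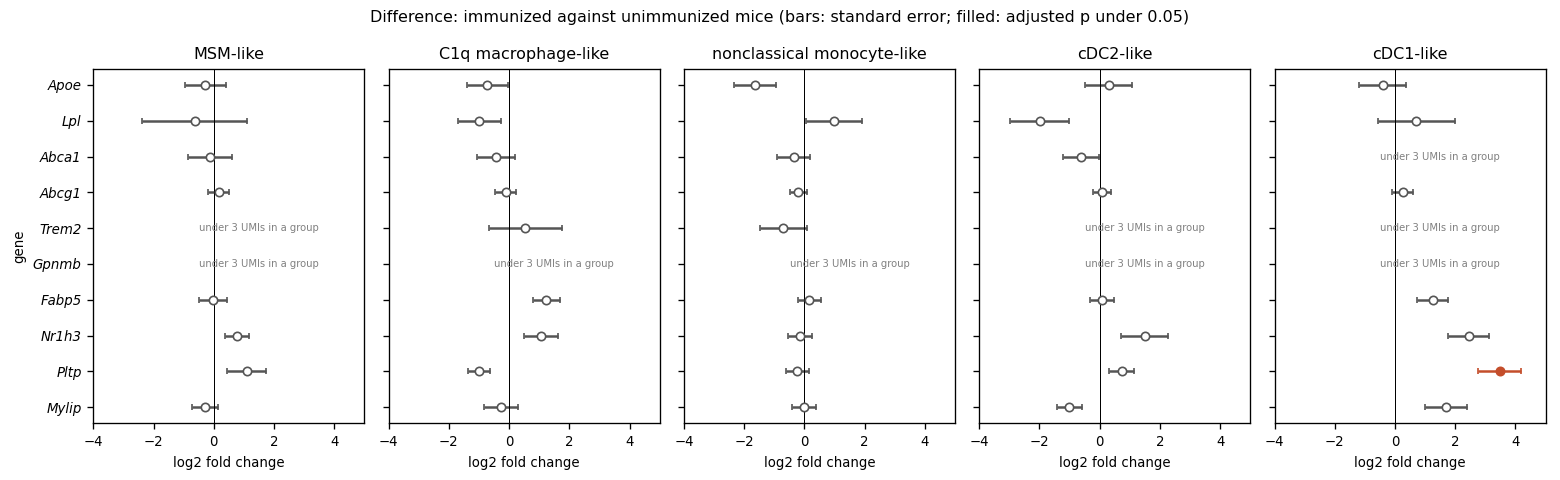
Difference of immunized against unimmunized mice in log2 units ± SE, for each lipid handling gene in 5 types, n = 2 mice a group; the filled point has an adjusted p under 0.05, and genes with under 3 UMIs in a group have no point. The 1 filled point is Pltp in cDC1-like cells, at 3.47.

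The wider pathway was followed with 8 lists holding 102 different genes, some in more than 1 list. Over all lists and types 112 tested list entries were higher and 74 lower of 960, and 168 and 108 with the mouse as a block, against the background of 9.82% without and 13.6% with the block. In migratory DC-like cells 18 of 20 tested genes of cholesterol synthesis were called higher and none lower, with a median difference of 1.99, where the median of all genes in that type was 0.01 and 18.1% were called higher. Idi1, which makes the isoprene unit dimethylallyl diphosphate, measured 175.8 and 139.4 CPM in the immunized mice and 268.4 CPM in unimmunized mouse 1 (4.03 ± 0.22, adjusted p = 2.95e-14). Cyp51, the lanosterol demethylase, was higher by 2.74 ± 0.31. In the same cells Dhcr7 and Lss were not called.

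In TBM-like cells, 7 of 11 genes of lysosomal lipid breakdown and export were called higher and none lower, with a median difference of 0.87 against 0.04 for all genes, and 9 with the mouse as a block. Pla2g15, the lysosomal phospholipase A2, was higher by 1.56 ± 0.24 and Galc, galactosylceramidase, by 1.19 ± 0.19. C1q macrophage-like cells had 2 of the 11 higher and none lower, with a median of 0.56, and 6 higher with the block. Of 7 lipoprotein and lipase genes, Pla2g15 among them, 4 were called higher in TBM-like cells (6 with the block), led by Apoc2, the cofactor of lipoprotein lipase, at 1.97 ± 0.37. Apoc2 was also higher in nonclassical (2.66 ± 0.34) and classical monocyte-like cells (1.84 ± 0.35). It was lower in cDC2-like (−2.43 ± 0.73) and migratory DC-like cells (−2.91 ± 0.91). Nonclassical monocyte-like cells had 3 of the 7 higher, where 6.45% of all genes were called higher. In C1q macrophage-like cells 1 of these 7 was called higher, and 5 with the block, where 1.16% and 3.87% of all genes were called higher. The corresponding shares in TBM-like cells were 5.6% and 8.55%. The set known from TREM2-dependent lipid-laden macrophages had 7 of 14 genes higher and 1 lower in TBM-like cells (8 and 1 with the block). There Ctsd, a lysosomal protease, was at 479.4 and 570.0 CPM in the immunized mice (2.10 ± 0.20, adjusted p = 3.86e-08). C1q macrophage-like cells had 5 of the 14 higher and 1 lower (7 and 1 with the block), Ctsd being higher by 1.39 ± 0.21 (adjusted p = 6.21e-04). The remaining types had from 1 (moDC-like) to 4 (migratory DC-like) higher, against 6.37% of all gene-by-type pairs. Migratory DC-like cells had 7 lower, where 13.4% of all genes were called lower, cDC1-like cells 6 and cDC2-like cells 5. Cd63 was higher in migratory DC-like (4.03 ± 0.20) and MSM-like cells (2.83 ± 0.27) and lower in classical monocyte-like cells (−3.54 ± 0.38). Cd9 was higher in cDC1-like (2.68 ± 0.18) and migratory DC-like cells (2.56 ± 0.17) and lower in classical monocyte-like cells (−3.30 ± 0.27).

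In classical monocyte-like cells 5 of 8 lipid uptake receptors were called higher, with a median of 0.90, and in nonclassical monocyte-like cells 4 of 8, with a median of 0.89, where the median of all genes was 0.03 and 0.02 and 5.48% and 6.45% of all genes were called higher. With the block these counts were 5 and 5, and in interferon-high monocyte-like cells the count rose from 0 to 4 of 8, where 5.76% of all genes were called higher with the block. Lrp1, an endocytic receptor for Apoe-bearing particles, was higher by 1.86 ± 0.21 in nonclassical and 1.51 ± 0.20 in classical monocyte-like cells. It was also higher in TBM-like cells (1.11 ± 0.22), where 2 of the 8 receptors and 5.6% of all genes were called higher. Lrp1 was lower by −2.59 ± 0.38 in migratory DC-like and −3.11 ± 0.49 in cDC1-like cells. Those cDC1-like cells had a high level of Cd36, a fatty acid and oxidized lipid receptor (98.7 and 47.3 CPM, 3.84 ± 0.42, adjusted p = 1.27e-07).

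Of 12 lipid droplet genes tested, 3 were higher and none lower in TBM-like cells, where 5.6% of all genes were called higher. The largest differences were those of Nceh1, a cholesterol ester hydrolase (1.05 ± 0.25), and Plin2, a droplet coat protein (0.88 ± 0.22). MSM-like cells had 3 higher and 1 lower, with a median of 0.59 against −0.15 for all genes, and Nceh1 was higher there by 1.55 ± 0.43. In migratory DC-like cells 3 were higher and 3 lower, Nceh1 being lower (−1.78 ± 0.45), where 18.1% of all genes were called higher and 13.4% lower. Of 11 genes of fatty acid binding and oxidation at most 2 were called in any type, where 9.82% of all gene-by-type pairs were called. With the block 1 was higher and 4 were lower in migratory DC-like cells, where 35.5% of all genes were then called. Among the 11 genes Acsl1, a long-chain acyl-CoA synthetase, was higher in TBM-like (1.06 ± 0.27) and C1q macrophage-like cells (1.08 ± 0.26) and lower in cDC2-like cells (−1.48 ± 0.37). Its immunized means were 145 CPM in TBM-like and 146 CPM in C1q macrophage-like cells. The inflammatory macrophage-like gate, which was not among the types compared, held more Acsl1, at 747 CPM over its pooled cells.

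Among the partners and other targets of the LXRs, 13 genes were tested, and 0 to 3 were called higher and 0 to 2 lower in any type, against 6.37% and 3.46% of all gene-by-type pairs. With the block these ranges were 0 to 4 and 0 to 3, with 4 higher in TBM-like cells. MSM-like cells had a high level of Rxra, which encodes the partner with which LXR binds DNA: 181.4, 144.0, 150.5 and 78.5 CPM (4.09 ± 0.29, adjusted p = 4.81e-11). Rxra and Nr1h3 were therefore both called higher in a type with shallow cells, where the median difference of all genes was −0.15. Between immunized and unimmunized mice 1 list entry of 480 was called higher and 1 lower, against 0.119% of all pairs, and with the block 5 and 6, against 0.866%. The calls without the block were Tyrobp, the signaling partner of Trem2, in cDC1-like cells (1.00 ± 0.20, adjusted p = 0.011), and Cd9, in nonclassical monocyte-like cells. Cd9 measured 211.6, 214.7, 73.5 and 66.0 CPM there (−1.46 ± 0.27, adjusted p = 0.022), without overlap.

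**Figure D5:**
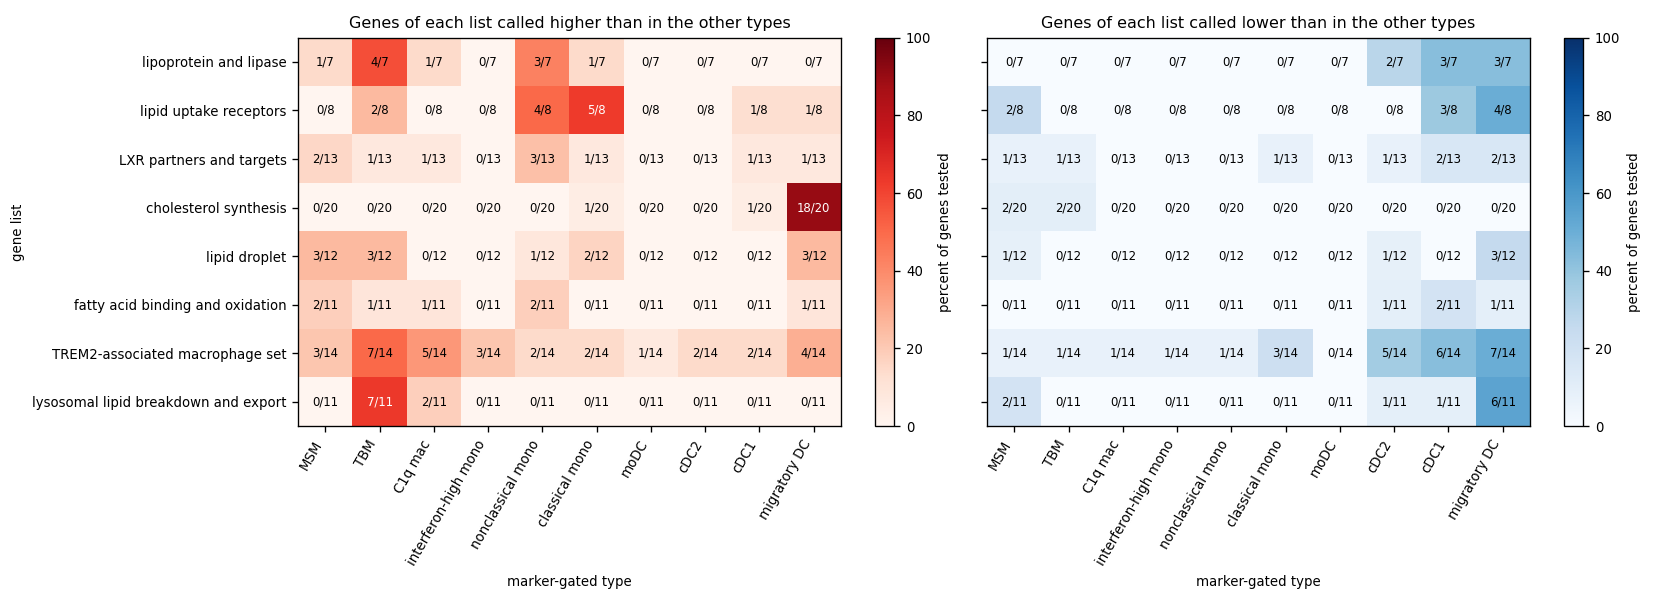
Number of genes of each of 8 lipid lists called higher (left) or lower (right) in each type against the mean of the other types in the immunized mice, edgeR without the block. Cholesterol synthesis stands out in migratory DC-like cells with 18 genes higher, and lysosomal lipid breakdown in TBM-like cells with 7.

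Likeness of pattern was described by Pearson's r of log2(CPM + 1) over the 10 types, each value the mean of the immunized mice, among 7227 genes. All points come from the same 2 animals, and the types differ in depth. The partners named were picked from the top of 7227 genes on only 10 points. How high r would reach among unrelated genes was not tested. Abca1 was most like Ctsd (r = 0.980) and Mitf (r = 0.97), Lpl most like Tcirg1 (r = 0.982), Fabp5 most like Clptm1 (r = 0.97), Trem2 most like Tmem43 (r = 0.965) and Apoe most like Cndp2 (r = 0.964). Nr1h3 was most like Ftl1-ps1 (r = 0.957), a pseudogene entry that may share reads with its parent gene, Mylip most like Cpeb4 (r = 0.953), Abcg1 most like Zfp809 (r = 0.953), Pltp most like Dnase2a (r = 0.912) and Gpnmb most like Gm10134 (r = 0.897). Among the members themselves the highest values were Abcg1 with Mylip (r = 0.907) and with Fabp5 (r = 0.885), and Abca1 with Trem2 (r = 0.866) and with Apoe (r = 0.845). Abca1 and Abcg1 had r = 0.130.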

How the data were processed

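CITE-seq of sorted CD11b+TOM+ lymph node cells was analysed as 4 mice told apart by hashtags. The authors deposited UMI counts of genes (Cell Ranger 4.0.0 per the submitters' notes, mm10-3.0.0 reference, captures joined) and counts of hashtag and antibody tags (CITE-seq-count); the antibody tags were not used here. A cell was kept with at least 10 hashtag counts, 80% of them from 1 hashtag, and at most 25% mitochondrial UMIs; 1238 barcodes had no hashtag row. The 80% rule leaves out barcodes with mixed hashtags; no doublet caller was run, and 1 alternative left out the 5% of cells with the most UMIs. Types were gated on 92 markers with thresholds set from marker counts. Members, lists and gates were chosen with earlier results of these data known, and the named genes are all members plus, per list and type, the 2 called genes of largest change whose log2 CPM averaged 4 or more; Dhcr7 and Lss were named after their values were seen.

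Counts were summed per mouse and type (at least 10 cells, 37 libraries of 29481 to 8636675 UMIs) and fitted together in edgeR 4.0.16 (filterByExpr, TMM, quasi-likelihood test, 15 residual degrees of freedom), in R 4.3.3. Alternatives used DESeq2 1.42.0, HTODemux of Seurat 5.3.0 and the settings given in the closing section. Fits were tested on simulated counts, with 200 genes changed 4-fold at a dispersion of 0.05. Of these, 100% were recovered for the type difference of TBM-like and 79% for that of MSM-like cells. Recovery was 59% for immunization in C1q macrophage-like cells and 63.5% for the difference of effects in cDC1-like cells. A missing call after immunization is thus not a shown lack of change. The types of 1 mouse share an animal. Their deviations from the group mean correlated at a median r of 0.134 in the immunized mice and 0.0199 in the unimmunized mice. For this reason the value with the mouse as a block is printed where it changes a call. The median r between immunized mice, −0.160, is not a separate comparison. Within a type, the deviation of 1 mouse from the group mean is the mirror image of the other's, so the same-mouse values fix it. Member values differed between captures by a median of 0.243 (log2, 149 values of at least 20 UMIs) and between mice of a group by 0.484 (75 values). Coordinates are GRCm38 and the promoter is from RefSeq GRCm38.p6; Lpl, Abcg1 and Fabp5 promoters were not used here.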

Additional observations from a re-analysis of the deposited data

How the results depend on the processing

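Of the 25 member-by-type differences called without the block, 15 were called under every alternative that gave an adjusted p (14 to 19 alternatives each) and 10 were lost under at least 1; Lpl in C1q macrophage-like cells and Pltp in moDC-like, Apoe in cDC2-like and Apoe in cDC1-like cells were lost under 5 or more, and none changed sign. The count of 25 rose to 50 with no filter on low counts, to 48 with the mouse as a replicate block and to 44 with 1 more marker per gate, and ran from 24 to 40 when 1 mouse was left out; under the other settings it was 21 to 34. After immunization the count of 1 became 6 with no filter, 3 with the replicate block, 2 with each type fitted alone, 2 in DESeq2, and 0 with a 95% hashtag share, with HTODemux, in the first capture, in the second capture, without the 5% deepest cells and with a robust spread; leaving out 1 mouse gave 0 to 9. For differences between types in that effect the count of 0 became 5 with no filter, 2 with the replicate block and 1 in DESeq2, and 0 to 5 when 1 mouse was left out. With no filter and without either immunized mouse the estimated prior degrees of freedom were infinite, so that a gene's own spread carried no weight. Over all genes, 10410 gene-by-type pairs were called between types and 4247 without immunized mouse 1, 6051 with the 95% hashtag share, 6842 and 5827 in the first and second capture and 6800 with at least 30 cells. Between immunized and unimmunized mice 63 were called, against 725 with no filter, 459 with the block, 11 and 21 without unimmunized mouse 1 and 2, 938 and 249 without immunized mouse 1 and 2, 28 with the 95% share, 13 with HTODemux, 29 and 3 in the captures, 15 with 1 more marker, 138 with at least 5 cells, 131 with each type alone and 107 in DESeq2. For differences in that effect 10 were called, and 0 to 187 under the alternatives. The robust spread was added after seeing the data. Libraries of at least 30 cells left no type for the immunization comparisons. The count of 38 shares above the lymphoid cells was 36 at 2000 UMIs and 49 without thinning. Depth limits Gpnmb, Trem2 outside TBM-like, C1q macrophage-like and classical monocyte-like cells, and all members in the 19 MSM-like cells of immunized mouse 2.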
